A study of Mus musculus with 14 samples.

Results

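Chemokines are small secreted proteins that draw leukocytes along a gradient, and they are sorted into CC and CXC families by the spacing of the first cysteines of the mature protein. The 10 genes described here, Ccl2, Ccl3, Ccl4, Ccl5, Ccl6, Ccl7, Ccl9, Ccl12, Cxcl10 and Cxcl16, were chosen by name from the 24394 named genes of the table, and all 10 passed the filter on low values that left 11646 genes. Each chemokine acts through G protein-coupled receptors on the target cell. In the brain, microglia are a main source of several of them. Transcripts of some chemokines, though not of all, are held low at rest and switched on by NF-kB, AP-1 and interferon signalling. Ccl2, Ccl7 and Ccl12 call in monocytes through Ccr2. Ccl3, Ccl4 and Ccl5 draw monocytes, macrophages and T cells, Ccl6 and Ccl9 signal through Ccr1, Cxcl10 through Cxcr3 on T cells, and Cxcl16 through Cxcr6.

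RNA was sequenced from microglia of C57BL/6 mice aged 18 months, sorted as about 20000 live cells with CD11b and low CD45. One group had received a CD22 blocking antibody and the other a control IgG, in each case for 1 month by osmotic pump into the cerebrospinal fluid. Each group held 7 libraries, anti-CD22 replicates 1 to 7 and IgG replicates 1 to 7, and the tissue was the hemisphere opposite the cannula. CD22 is an inhibitory receptor for sialic acid. Both groups were aged, cannulated and infused with an antibody, so no library shows young or untreated microglia, and whether each library is a separate animal is not stated in the labels. The p-values therefore reflect only the variation among the samples at hand.

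The deposited values are normalized counts, which are read counts per gene divided by 1 size factor per library. They summed to between 27357939 and 29197481 per library. All 10 microglia markers were tested, and they summed to 1842658 to 1979079 normalized counts in anti-CD22 libraries and to 1743023 to 2081177 in IgG libraries. Transcripts of T and NK cells were near 0, with 9 marker genes in the table summing to at most 9.53 normalized counts in anti-CD22 libraries and 7.80 in IgG libraries, and Cd3e, Cd3g, Gzma and Gzmb at 0 throughout. Neutrophil markers varied widely between libraries, from 0 to 10131 summed normalized counts in anti-CD22 libraries and from 3.34 to 53461 in IgG libraries. Monocyte markers also varied, from 190 to 2512 in anti-CD22 libraries and from 294 to 9465 in IgG libraries. Long transcripts were relatively more abundant in some anti-CD22 libraries. The Spearman correlation across genes of transcript length with each gene's deviation from its mean over the 14 libraries ran from -0.282 to 0.337 in anti-CD22 libraries and from -0.269 to -0.00101 in IgG libraries. Each chemokine is therefore also given with the trend in length and GC content removed.

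Of the 10 genes, 9 lie on chromosome 11 and Cxcl10 lies on chromosome 5 (GRCm38). The 8 Ccl genes fall within chr11:82035571-83664683. Ccl2 and Ccl7 are 8258 bases apart, Ccl9 and Ccl6 are 9245 bases apart, and Ccl3 and Ccl4 are 13228 bases apart. The 250 bases before the transcription start, from RefSeq (GRCm38.p6), were found for 5 of the 10 genes, Ccl3, Ccl6, Ccl9, Ccl12 and Cxcl10. Those of Cxcl10 and Ccl3 are shown because Cxcl10 is the gene with matches to motifs of 3 regulators and Ccl3 had the smallest p of the 10 genes. Capitals mark motif matches, which are listed after the sequences.
Cxcl10, chr5:92348890-92349139, minus strand: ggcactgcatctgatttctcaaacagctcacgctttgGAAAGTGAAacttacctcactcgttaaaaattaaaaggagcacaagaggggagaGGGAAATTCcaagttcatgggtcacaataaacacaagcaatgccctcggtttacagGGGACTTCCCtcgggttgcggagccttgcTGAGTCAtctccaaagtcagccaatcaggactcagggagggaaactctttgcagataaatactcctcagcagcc
Ccl3, chr11:83649379-83649628, minus strand: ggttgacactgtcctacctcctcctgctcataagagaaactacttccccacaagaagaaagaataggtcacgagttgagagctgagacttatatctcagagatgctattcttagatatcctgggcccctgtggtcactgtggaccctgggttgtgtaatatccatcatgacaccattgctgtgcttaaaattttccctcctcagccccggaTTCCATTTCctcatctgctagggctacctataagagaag

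The motifs searched, on both strands, were GGGANNTNC for NF-kB, TGANTCA for AP-1, GAAANNGAA for the interferon-stimulated response element and TATAAA for the TATA box, and they were chosen with the sequences in view. Among 32851 promoter stretches of the same length, 12.5% held the first, 6.75% the second, 7.13% the third and 12.4% the last. Cxcl10 held the NF-kB letters at -159 to -151 and at -103 to -95, and a match on the other strand at -102 to -94 overlaps the second of these. It also held the AP-1 letters at -74 to -68 and the interferon element at -213 to -205, counting back from the start site. Ccl3 held the interferon letters on the other strand at -39 to -31. Ccl9 held the AP-1 letters at -53 to -47 and several TATA matches, Ccl12 held TATAAA at -31 to -26, and Ccl6 held none of these letters in its window. A match is a description of the letters and not a site.

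How strongly each chemokine was expressed was compared per kilobase of transcript over all 14 libraries. Ccl6 stood highest, at 4077 ± 1089 normalized counts per kilobase (SD, n = 14), followed by Ccl12 at 2262 ± 596, Ccl4 at 1797 ± 589, Cxcl16 at 1404 ± 177, Ccl9 at 1240 ± 212 and Ccl3 at 1067 ± 237. A lower tier began with Ccl2 at 231.9 ± 75.8 and Cxcl10 at 189 ± 77.5, and Ccl7 at 48.5 ± 45.3 and Ccl5 at 34.6 ± 23.4 were lowest. Ccl3 and Ccl2 were the 1 pair of neighbours in this order whose ranges did not overlap. Ccl6 lay above Ccl12 in 14 of 14 libraries although their ranges overlapped, while Ccl12 lay above Ccl4 in 10 of 14 and Ccl7 above Ccl5 in 9 of 14.

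**Figure D1:**
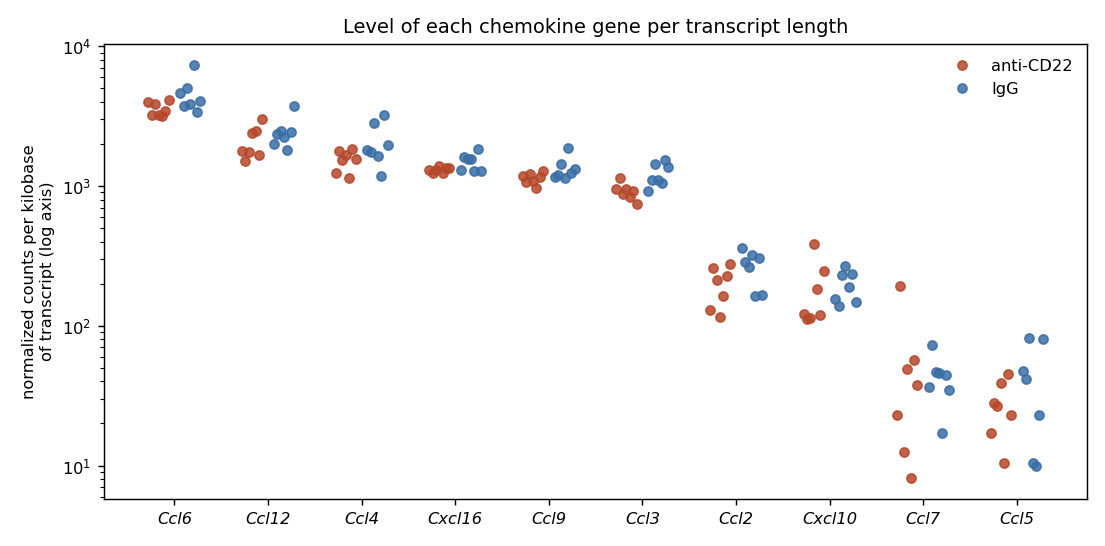
Normalized counts per kilobase of transcript for each of the 10 chemokine genes on a log axis, 1 point per library, with anti-CD22 libraries left of IgG libraries within each gene. Ccl6 leads at a mean of 4077 per kilobase, and a gap separates Ccl3 (1067) from Ccl2 (231.9).

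Whether a month of CD22 blockade changed these genes was tested within a limma fit of all 11646 genes. All 10 chemokines had a log2 fold change below 0, where 49.8% of all tested genes did, and their median was -0.28 against 0.00 over all genes. None passed an adjusted p of 0.05 in the lower direction (0 of 10, against 0.00859% of all genes, which is the 1 gene Ier2). At an unadjusted p under 0.05 there were 5 of 10 lower, Ccl3, Ccl4, Ccl6, Ccl9 and Cxcl16, where 5.95% of all genes were lower at that threshold. Over all 11646 genes, 693 were lower at that threshold in the main fit, and brackets below give this number for other fits. The count of chemokines was 3 after removal of the length and GC trend (474) or with libraries rescaled to the same total (612). It was 1 without a mean-variance trend in limma (645). Without anti-CD22 replicates 1 to 3 (292), without anti-CD22 replicate 5 (797) or without IgG replicate 3 (648) it was 2. It was also 3 without anti-CD22 replicate 1 (489), replicate 3 (485) or replicate 4 (699), or without IgG replicate 6 (520). On the recovered reads of 13 libraries DESeq2 gave an adjusted p for 6 of the 10, and called 0 of these 6, where it called 0.27% of all genes with an adjusted p lower. It gave no adjusted p for Ccl2, Ccl5, Ccl7 and Cxcl10. EdgeR called 0.0% of all genes, so its 0 of 10 says nothing about the chemokines. The anti-CD22 and IgG libraries overlapped for all 10 genes, and 0.12% of all genes were lower with no overlap. Most of these genes lie close together on the chromosome and 1 pair, Ccl6 and Ccl9, varied together between libraries. The 10 directions therefore cannot be counted as independent results, and how far they depend on each other was not tested.

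**Figure D2:**
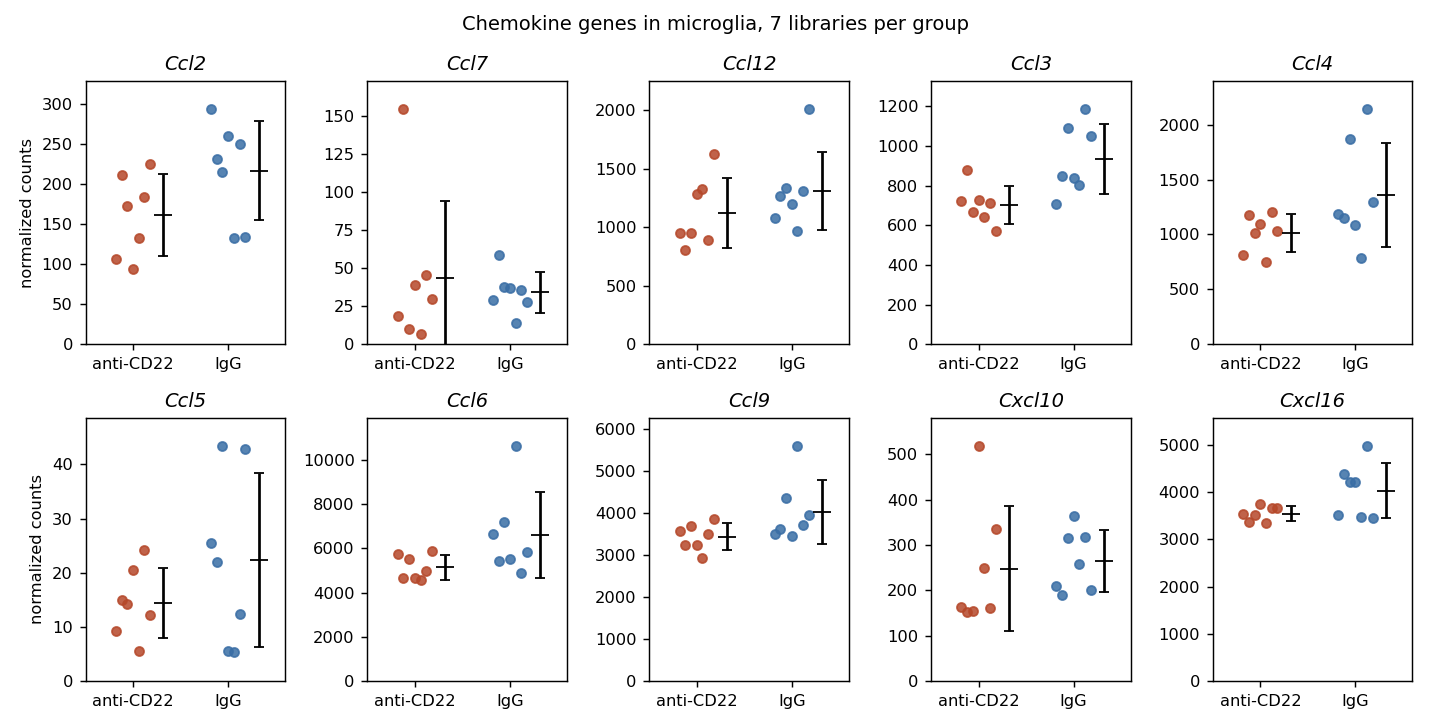
Normalized counts of the 10 chemokine genes on linear axes from 0, 1 point per library, with the mean and SD (n = 7) as a bar beside each group, anti-CD22 on the left and IgG on the right. The groups overlap in every panel, and 1 anti-CD22 library stands at 154.6 for Ccl7, where the SD bar reaches below 0 and is cut at the axis.

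The Ccr2 ligands came from the lower and the upper tier. Ccl2, the main monocyte attractant (chr11:82035571-82037453), had 93.5, 172.6 and 225 normalized counts as lowest, median and highest in anti-CD22 libraries and 132, 231 and 293 in IgG libraries. Every anti-CD22 library was under the median of the IgG libraries, and 2 of 7 lay under the lowest IgG library. The highest value, 293, was in IgG replicate 1, which also had the highest monocyte marker sum, 9465. IgG replicate 7 had the next highest sum, 2591, but a Ccl2 value of 133.9. The relation was not tested, and without IgG replicate 1 the log2 fold change was -0.35. The means were 161 ± 51.1 with anti-CD22 and 216 ± 61.8 with IgG (SD, n = 7 each), a log2 fold change of -0.44 (SE 0.24, limma adjusted p = 0.448). This was the largest log2 fold change of the 10 genes in size, but its spread between libraries was also wide, and the 95% interval ran from -0.93 to 0.06.

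Ccl7, a neighbour of Ccl2 that attracts monocytes through the same receptor, had 6.50, 29.9 and 155 normalized counts in anti-CD22 libraries and 13.7, 35.8 and 58.7 in IgG libraries. Its mean was higher with anti-CD22, at 43.4 ± 51.1, than with IgG, at 34.2 ± 13.6 (SD, n = 7 each), while its log2 fold change was -0.21 (SE 0.55, limma adjusted p = 0.898). The sign thus depends on the scale, and without anti-CD22 replicate 2 the log2 fold change was -0.62 (limma adjusted p = 0.699). Anti-CD22 replicate 2 held the highest value of 154.6, and that library also had the highest sum of 8 border-associated macrophage markers, 2413 normalized counts, where the other anti-CD22 libraries had 263.5 to 1769 and the IgG libraries 102 to 1691. Anti-CD22 replicates 3 and 1 had the next highest sums of these markers in their group, 1769 and 1632, but their Ccl7 values of 10.1 and 18.3 lay under the group median. Anti-CD22 replicate 2 also had the highest monocyte marker sum of its group, 2512, and a neutrophil marker sum of 9693. Anti-CD22 replicate 4, at 2498 and 10131 for these, had a Ccl7 value of 39.05. Over the 14 libraries, with group means removed, Ccl7 and the border-associated macrophage markers had r = 0.30 (permutation p = 0.274, adjusted p = 0.925) and rho = 0.15 (permutation p = 0.605, adjusted p = 0.954), and r was -0.23 without the 2 libraries farthest from the median of Ccl7.

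Ccl12, a mouse monocyte attractant with no direct human counterpart, had 808, 949 and 1627 normalized counts in anti-CD22 libraries and 969, 1269 and 2007 in IgG libraries. The groups were mixed, with 4 of 7 anti-CD22 libraries under the lowest IgG library and 3 above the IgG median. The means were 1119 ± 298 with anti-CD22 and 1310 ± 334 with IgG (SD, n = 7 each), a log2 fold change of -0.23 (SE 0.16, limma adjusted p = 0.543). It was -0.13 without IgG replicate 7 and -0.03 without anti-CD22 replicates 1 to 3.

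Of Ccl3, Ccl4 and Ccl5, which attract macrophages and T cells, Ccl3 had the smallest p of all 10 genes, at rank 192 of 11646. Ccl3, also known as macrophage inflammatory protein 1 alpha (chr11:83647844-83649355), had 569, 711 and 880 normalized counts in anti-CD22 libraries and 707, 846 and 1185 in IgG libraries. All anti-CD22 libraries other than replicate 2 were under the median of the IgG libraries (6 of 7). The means were 703 ± 96.0 with anti-CD22 and 932 ± 177 with IgG (SD, n = 7 each), a level 1.32-fold lower with anti-CD22 on the log2 scale (log2 fold change -0.40, SE 0.12, 95% interval -0.65 to -0.14, limma adjusted p = 0.235). After removal of the length and GC trend the log2 fold change was -0.31 (limma adjusted p = 0.513).

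Ccl4, macrophage inflammatory protein 1 beta, lies beside Ccl3. It had 747, 1032 and 1209 normalized counts in anti-CD22 libraries and 782, 1188 and 2141 in IgG libraries. The IgG libraries were far more spread out, and 3 of them, among them replicates 3 and 6 at 1873 and 2141, lay above the highest anti-CD22 library. The means were 1012 ± 174 with anti-CD22 and 1359 ± 476 with IgG (SD, n = 7 each), a log2 fold change of -0.37 (SE 0.18, limma adjusted p = 0.389). After removal of the trend it was -0.27, and without IgG replicate 6 it was -0.25.

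Ccl5, or RANTES, an attractant of T cells, was close to the filter on low values. It had 5.57, 14.1 and 24.2 normalized counts in anti-CD22 libraries and 5.25, 22.0 and 43.4 in IgG libraries. IgG replicates 3 and 7 were high, at 43.4 and 42.8, while IgG replicates 4 and 5 were as low as the lowest anti-CD22 library. The log2 fold change of -0.35 (SE 0.56, limma adjusted p = 0.822) was within the spread of the libraries. It ran from -0.61 without IgG replicate 5 to -0.14 without IgG replicate 3, and was -0.62 with edgeR and -0.63 with DESeq2 on the reads of 13 libraries. T and NK cells also make Ccl5, and their marker sums were low, as was Ccl5 itself. Anti-CD22 replicate 6 was the highest of its group for both, at 24.2 for Ccl5 and 9.53 for the markers. In the IgG group, replicate 4 had the highest marker sum, 7.80, and a Ccl5 value of 5.57. IgG replicate 3, with the highest Ccl5, had a marker sum of 3.28. The relation was not tested.

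The Ccr1 ligands Ccl6 and Ccl9, both secreted by myeloid cells in mice, shared the library that stood apart in the IgG group. Ccl6 (chr11:83587882-83593087) had 4567, 4974 and 5894 normalized counts in anti-CD22 libraries and 4880, 5827 and 10633 in IgG libraries. IgG replicate 5 stood apart at 10633, with the next IgG library at 7212. The means were 5149 ± 568 with anti-CD22 and 6592 ± 1947 with IgG (SD, n = 7 each), a log2 fold change of -0.32 (SE 0.13, limma adjusted p = 0.328), and without IgG replicate 5 it was -0.20.

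Ccl9 (chr11:83572919-83578636) had 2923, 3504 and 3862 normalized counts in anti-CD22 libraries and 3443, 3721 and 5598 in IgG libraries. IgG replicate 5 was again the highest, and 6 of 7 anti-CD22 libraries were under the IgG median. The means were 3432 ± 319 with anti-CD22 and 4026 ± 759 with IgG (SD, n = 7 each), a log2 fold change of -0.22 (SE 0.095, limma adjusted p = 0.364), and without IgG replicate 5 it was -0.13. Ccl9 was the 1 gene of the 10 whose log2 fold change grew in size after removal of the length and GC trend, to -0.27 (limma adjusted p = 0.359), and its transcript, at 3006 bases, is the longest of the 10.

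The CXC genes differed in how evenly they were expressed. Cxcl10, an interferon-inducible attractant of activated T cells (chr5:92346638-92348889), had 152, 164 and 519 normalized counts in anti-CD22 libraries and 189, 258 and 363 in IgG libraries. In the anti-CD22 group 4 of 7 libraries lay under the lowest IgG library, while replicates 4 and 7 reached 518.9 and 334.9. The means were 248 ± 138 with anti-CD22 and 265 ± 68.2 with IgG (SD, n = 7 each), a log2 fold change of -0.21 (SE 0.26, limma adjusted p = 0.756). Without the 3 libraries with the steepest length trend, anti-CD22 replicates 1 to 3, its log2 fold change was 0.17 (limma adjusted p = 0.999). It ran from -0.42 to -0.12 when 1 library was left out, and was -0.01 with DESeq2 on the reads of 13 libraries. Of 20 interferon response genes tested, 13 were lower and 7 higher with anti-CD22, 0 were called, and their median log2 fold change was -0.07.

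Cxcl16, made as a membrane-bound chemokine that Adam10 can shed (chr11:70453983-70459984), had the smallest within-group SD of the 10 genes on the log2 scale, 0.15. It had 3354, 3533 and 3745 normalized counts in anti-CD22 libraries and 3443, 4211 and 4979 in IgG libraries. All 7 anti-CD22 libraries were under the IgG median, while 3 of the IgG libraries, replicates 1, 5 and 7, lay within the anti-CD22 range. The means were 3546 ± 152 with anti-CD22 and 4031 ± 576 with IgG (SD, n = 7 each), a log2 fold change of -0.17 (SE 0.078, limma adjusted p = 0.372). The 5′ end of Cxcl16 overlaps Zmynd15 on the other strand, and whether reads were counted by strand is not given in the sources used here.

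Across the 10 genes the SD of normalized counts was larger with IgG for 8, while the mean was higher with IgG for 9. The SD as a percentage of the mean was larger with IgG for 6. These counts were not set beside all genes. Anti-CD22 replicate 5 was the lowest of all 14 libraries for 5 genes, Ccl4, Ccl6, Ccl7, Ccl9 and Cxcl16, and IgG replicate 6 was the highest for 3, Ccl3, Ccl4 and Cxcl16. Summed per kilobase, the 10 genes had 10198, 10846 and 12654 normalized counts per kilobase as lowest, median and highest in anti-CD22 libraries and 12175, 14141 and 15386 in IgG libraries. Only anti-CD22 replicate 7 reached the IgG range. Ccl6 alone made up 32.4% of the mean sum with anti-CD22 and 33.5% with IgG. The genes weigh alike in the mean of their log2 values, each centred on its mean over the 14 libraries. That mean ran from -0.52 to 0.09 in anti-CD22 libraries and from -0.22 to 0.46 in IgG libraries, so the groups overlapped. In bulk libraries, fewer cells that express a gene and less RNA per cell cannot be told apart.

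**Figure D3:**
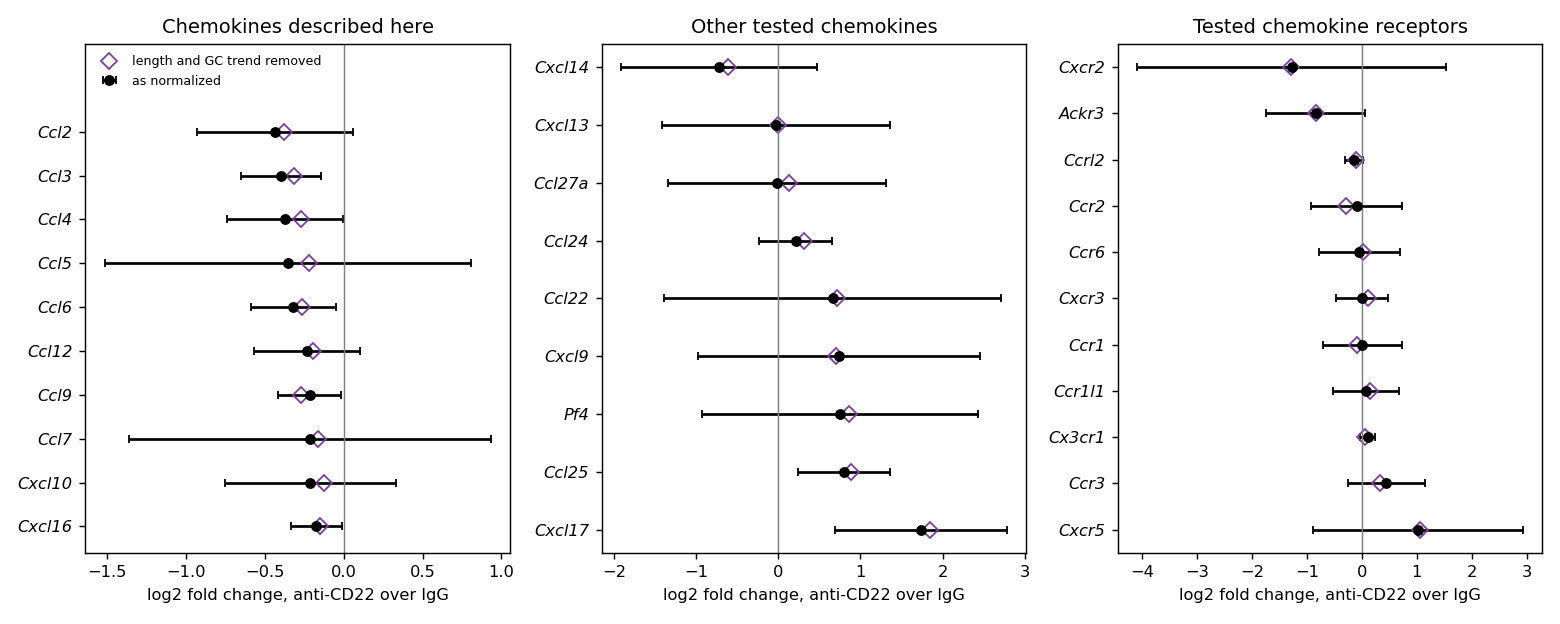
Log2 fold change, anti-CD22 over IgG, of the 10 chemokine genes, the 9 other tested chemokines and 11 tested chemokine receptors, with the 95% interval of the limma fit (filled circles) and the value with the length and GC trend removed (open diamonds). The 10 genes lie between -0.44 and -0.17, while Cxcl17 and Ccl25 lie above 0.

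Of the other chemokine genes that could be tested, most had a log2 fold change above 0, several of them with wide intervals. Of 31 others in the table, 13 were listed at 0 in every library, among them the neutrophil attractants Cxcl1 and Cxcl5, and 9 passed the filter. Of these 6 were higher and 3 lower with anti-CD22, at a median of 0.66 on the log2 fold change scale, and 0 were called. Cxcl17, a chemokine of mucosal tissues, had 17.5, 31.6 and 48.4 normalized counts in anti-CD22 libraries and 1.81, 9.01 and 21.3 in IgG libraries. All 7 anti-CD22 libraries exceeded the IgG median, although the groups overlapped, and the log2 fold change was 1.74 (SE 0.50, limma adjusted p = 0.215). Ccl25, a ligand of Ccr9, averaged 90.1 ± 17.7 normalized counts with anti-CD22 and 53.6 ± 19.7 with IgG (SD, n = 7 each), a log2 fold change of 0.80 (SE 0.27, limma adjusted p = 0.258). These were the 2 of 9 at an unadjusted p under 0.05, where 6.8% of all genes were higher at that threshold.

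Chemokine receptor genes were compared as well. Of 23 examined, 11 passed the filter, 6 of them higher and 5 lower with anti-CD22, with 0 called and 0 at an unadjusted p under 0.05. Cx3cr1, the microglial receptor for Cx3cl1, averaged 213731 ± 22996 with anti-CD22 and 198463 ± 15297 with IgG. Ccr1 averaged 515 ± 136 with anti-CD22 and 577 ± 278 with IgG, and Ccr2, a monocyte marker, averaged 184 ± 104 with anti-CD22 and 190 ± 117 with IgG (SD, n = 7 each). Cxcr3 averaged 99.7 ± 20.7 with anti-CD22 and 101.4 ± 29.0 with IgG, while Cxcr6, the receptor of Cxcl16, did not pass the filter on low values. The decoy receptor Ackr3, which takes up Cxcl12, had 29.4 ± 12.6 normalized counts with anti-CD22 and 60.0 ± 36.3 with IgG, a log2 fold change of -0.84 (limma adjusted p = 0.423).

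Genes that shed or cleave chemokines, or that control the decay of their messages, were mostly slightly higher. Of 11 tested, 8 were higher and 3 lower with anti-CD22, with 0 called and a median log2 fold change of 0.10. Adam10, the sheddase of Cxcl16, averaged 14786.1 ± 2014 normalized counts with anti-CD22 and 12453 ± 773 with IgG (SD, n = 7 each), a log2 fold change of 0.24 (limma adjusted p = 0.238), or 0.12 after removal of the trend. Rc3h1, which promotes decay of inflammatory messages, had a log2 fold change of 0.46 (limma adjusted p = 0.254), or 0.24 with the trend removed. Both transcripts are longer than those of the 10 chemokines.

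Genes of NF-kB signalling and immediate early genes, lists that hold regulators of chemokine transcription beside other genes, were counted next. Of 16 NF-kB subunits, inhibitors and targets, 14 were lower and 2 higher, with 0 called and a median log2 fold change of -0.14. Of 19 tested immediate early genes, which include the AP-1 subunits, 15 were lower and 4 higher, 1 was called (Ier2, limma adjusted p = 0.0227) and the median log2 fold change was -0.41, or -0.23 after removal of the trend. The call of Ier2 was lost after that removal (limma adjusted p = 0.193) and in 8 of 14 fits that each left out 1 library, where its limma adjusted p ran from 0.0139 to 0.101. Whether these genes and the chemokines moved together between libraries was then examined with the group means removed. Over 60 relations of the 10 genes with lists of immediate early, NF-kB and interferon genes, with border-associated macrophage and neutrophil markers and with the length trend, 0 passed an adjusted p of 0.05. The lowest permutation adjusted p was 0.925 for r, 0.486 for rho and 0.625 for r after removal of the trend. Ccl7 and the interferon genes had r = -0.72 (permutation p = 0.0161, adjusted p = 0.925). Cxcl10 and the border-associated macrophage markers had rho = -0.63 (permutation p = 0.0081, adjusted p = 0.486). 

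Which of the 10 genes were high in the same libraries was asked in the same way, over 45 pairs of genes in 14 libraries, with log2 values centred within each group. One pair, Ccl6 and Ccl9, passed, with Pearson r = 0.88 (permutation p = 0.00094, adjusted p = 0.0423) and Spearman rho = 0.83 (permutation p = 0.00075, adjusted p = 0.0338). The correlation was 0.90 within the anti-CD22 group (exact permutation p = 0.00635, adjusted p = 0.143, n = 7) and 0.88 within the IgG group (exact permutation p = 0.0216, adjusted p = 0.534, n = 7), so neither group passed alone. It was 0.78 without the 2 libraries farthest from the median of Ccl6. After removal of the length and GC trend r was 0.78 (permutation p = 0.0123, adjusted p = 0.272). Ccl3 and Ccl4 had r = 0.67 (permutation p = 0.0194, adjusted p = 0.291) and rho = 0.63 (permutation p = 0.0277, adjusted p = 0.291), 0.37 within the anti-CD22 group and 0.80 within the IgG group. In all, 20 of 45 pairs had a positive r.

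**Figure D4:**
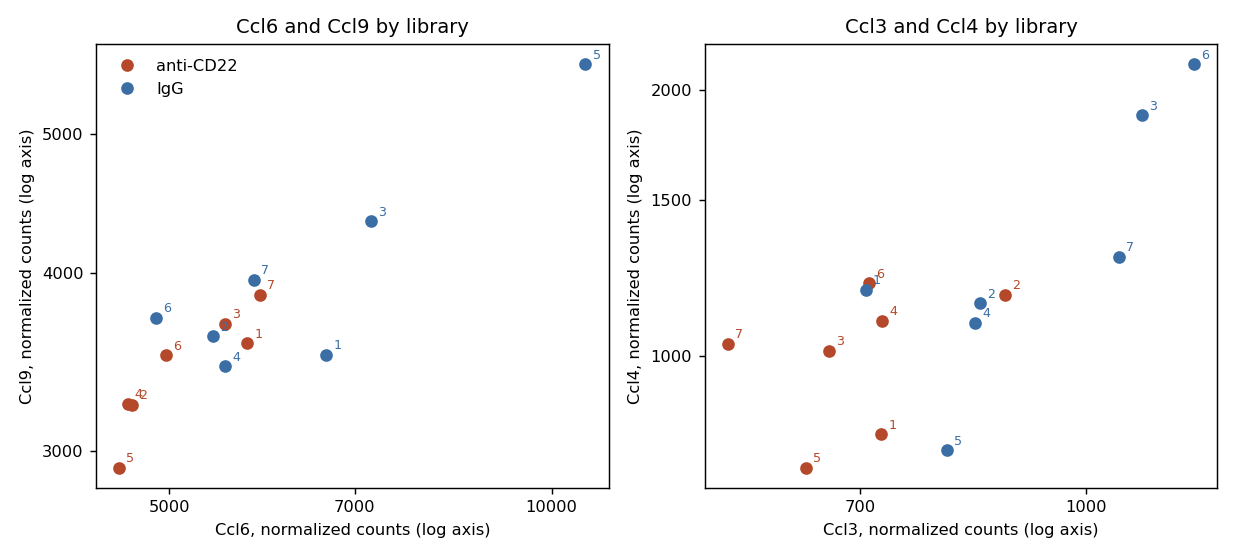
Normalized counts per library, log axes, of Ccl9 against Ccl6 and of Ccl4 against Ccl3, with the replicate number beside each point and anti-CD22 and IgG libraries in different colours. The r of Ccl6 and Ccl9 was 0.90 with anti-CD22 and 0.88 with IgG, neither past the threshold in 1 group alone, with IgG replicate 5 at the upper end, while Ccl3 and Ccl4 are more scattered.

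The stretches before the start sites of Ccl6 and Ccl9 are shown because this was the 1 pair past the threshold. Capitals mark the best local alignment between them, with 16 identical of 17 aligned bases, at -59 to -43 of Ccl6 and -18 to -2 of Ccl9.
Ccl6, chr11:83593088-83593337, minus strand: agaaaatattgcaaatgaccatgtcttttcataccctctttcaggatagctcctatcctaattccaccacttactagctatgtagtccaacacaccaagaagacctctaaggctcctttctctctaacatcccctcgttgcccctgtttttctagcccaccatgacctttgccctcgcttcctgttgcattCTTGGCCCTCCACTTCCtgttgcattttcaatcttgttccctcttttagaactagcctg
Ccl9, chr11:83578637-83578886, minus strand: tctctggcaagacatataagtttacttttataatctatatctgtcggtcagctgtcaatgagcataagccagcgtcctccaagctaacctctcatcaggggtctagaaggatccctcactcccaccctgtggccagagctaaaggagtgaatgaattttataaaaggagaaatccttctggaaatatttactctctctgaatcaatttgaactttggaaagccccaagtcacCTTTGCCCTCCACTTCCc
This pair had the highest alignment score of the 10 pairs among the 5 available stretches, 29, where the next pair, Ccl6 and Ccl12, had 21. The alignment describes the letters, and its relation to the shared variation was not tested.

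Genes alike to single chemokines across the 14 libraries were sought for Ccl3 and Ccl7 only, among genes other than the chemokines described here. Among the chemokines left out, the highest group-centred Pearson r was that of Ccl4, at 0.67 with Ccl3 and 0.51 with Ccl7. For Ccl3 the highest group-centred Pearson r among non-members belonged to Polr3g (0.80), Gm15800 (0.79) and Pum2 (0.79), with log2 fold changes of 0.36, 0.22 and -0.02. For Ccl7, the gene with the largest spread within groups, it belonged to 2810403D21Rik (0.86), Ndufaf6 (0.82) and Smpdl3a (0.81). These are the highest values among 11646 genes, chosen for their size, and are given as descriptions.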

How the data were processed

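The deposited table gives normalized counts: a signal for which the authors had scaled every library's gene counts by its own size factor. Per the submitters' processing notes, bcl2fastq, STAR (genome build mm10) and DESeq2 were used, and the count matrix came from SummarizedExperiment per the series' design text. Not given in the sources used here were versions, annotation and strand setting. After 27 entries turned into dates were left out (at most 0.149% of a library), 24394 genes remained. Groups came from the sample titles.

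Here limma (3.58.1, R 4.3.3) was fitted to log2(normalized count + 1). It covered the 11646 genes averaging at least 10 normalized counts, with a mean-variance trend. Two-sided p-values were adjusted by Benjamini-Hochberg across the 11646 genes, with 0.05 as threshold. Fold changes are on this scale and understate changes of low genes. The median SE was 0.13. Intervals are 95% intervals of the fit. Values of each library were whole multiples of 1 step (100% within 0.1 reads), and whole reads were recovered for 13 libraries, from 20221836 to 38101421 each. Anti-CD22 replicate 3, whose step of 1.00925 is close to 1, stayed out of edgeR 4.0.16 and DESeq2 1.42.0. The anti-CD22 against IgG fit was tested on simulated counts of 11646 genes, where it found 72 of 100 genes with a 1.5-fold change and 90 of 100 with a 2-fold change, with 2 false calls. The simulation used an assumed dispersion, no length trend and only increases. The largest fold of the 10 chemokines, 1.35 for Ccl2, lay below the folds simulated, so this recovery does not cover them. No replicates agreed within counting noise. Correlations used 100000 permutations within groups, with p adjusted over all relations of a kind. Length and GC content came from GENCODE vM21 (GRCm38, the assembly of mm10) and were known for 96.4% of tested genes. They were taken from the longest protein-coding transcript, or from the longest of any type where a gene had none. Their trend was removed per library with natural splines. Tables and plots were made with pandas 2.3.3 and matplotlib 3.10.9 in Python 3.11.15.

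The 10 genes, the other lists and the rule for named genes (all 10 genes, some chemokine receptors, up to 4 genes of each list by smallest p, and the 3 genes most alike to the chemokine with the smallest p and to the one with the largest spread) were chosen with earlier results of these data known. Genes given as examples at 0 were named after their values were seen. A gene of the receptor list is not reported here.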

Additional observations from a re-analysis of the deposited data

Results flagged for a closer look

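Among the 20 groups of 7 libraries for the 10 chemokines, 4 held a library whose gap to the next was larger, as a share of the group's range, than Dixon's critical value for 7 samples. Chance flags about 1 in 20 groups. Anti-CD22 replicate 2 was the highest for Ccl7, at 154.6 normalized counts. IgG replicate 5 was the highest for both Ccl6, at 10633, and Ccl9, at 5598. IgG replicate 7 was the highest for Ccl12, at 2007. On the log2 scale used for the tests, 0 of the 20 groups held such a library.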

How the results depend on the processing

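Of 278 alternative values for single chemokines, 5 turned direction and 0 passed the threshold. Of these values, 4 had no adjusted p with DESeq2, and those from fits that called 0 of all genes could not pass. Ccl7 ran from -0.62 to 0.11 when 1 library was left out. It turned to 0.01 without anti-CD22 replicate 3, to 0.11 without anti-CD22 replicate 5, and to 0.52 on recovered reads with edgeR (0.5227) and DESeq2 (0.5193), which lack anti-CD22 replicate 3. Cxcl10 turned to 0.17 without the 3 steepest libraries. The cause was not tested. The median log2 fold change of the 10 chemokines stayed from -0.35 to -0.21 in the 14 fits that each left out 1 library, and 0 of them were called in any fit. Over all genes, 1 gene was called, against 0 without a mean-variance trend, with the length and GC trend removed, without the 3 steepest libraries and with edgeR (1027 genes at an unadjusted p under 0.05), 2 with the replicate block, 8 with array weights, 35 with DESeq2, 4 at a threshold of 0.10, and 0 to 43 when 1 library was left out, the 43 without anti-CD22 replicate 7. Whether the replicate numbers pair the libraries is not stated in the labels. The deviations of same-numbered libraries correlated from -0.145 to 0.160, and 0 of 7 matched their own number best. These correlations span all tested genes and cannot exclude pairing for some of them. With the replicate block the SE of Ccl4 was 0.122 against 0.177, and that of Ccl2 was 0.251 against 0.236. For covariation, the 1 pair past the threshold became 0 in each group alone, without the 2 farthest libraries and after removal of the length and GC trend, where fewer libraries or changed values entered. Depth limits Ccl5 and Ccl7 most, at mean normalized counts between 14.4 and 43.4.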
